A study of Mus musculus with 20 samples.

Results

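The effect of geranylgeraniol (GGOH) on the liver of obese mice was measured as 1 contrast over all 20 libraries of the study. The 10 mice with GGOH comprised 5 given GGOH alone and 5 given Rosuvastatin+GGOH, called the combination here. The 10 mice without it comprised 5 given vehicle and 5 given Rosuvastatin. The contrast is the mean of the first 2 groups minus the mean of the other 2, so the statin is balanced between the sides and enters as the second factor. Mice were put on a side by their treatment label. All mice were labelled WT with diet-induced obesity (DIO in the labels), so there was no lean group, and RNA came from liver. The labels give no dose, route, duration, sex or age, and nothing beyond the separate titles says whether the 5 samples of a group came from separate animals, cages or days. P-values therefore measure only the spread between these samples, called mice below.

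GGOH is a 20-carbon isoprenoid alcohol. Cells can phosphorylate it to geranylgeranyl diphosphate, the lipid that prenyltransferases attach to many small GTPases so that they can reach membranes. The same diphosphate is normally made from mevalonate, whose synthesis statins such as rosuvastatin inhibit. In hepatocytes, the nuclear receptors CAR and PXR sense lipophilic compounds and switch on cytochrome P450 genes, and Cyp2b10 is the classical CAR target in the mouse.

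The libraries held between 8548120 and 18373913 estimated counts, which averaged 15825900 ± 3255380 with GGOH and 14735700 ± 1396210 without (SD, n = 10 each). That difference, the share of mitochondrial transcripts, the number of genes detected and the share of the 10 most abundant genes each gave an adjusted p of 0.469 over the 4 measures (two-sided exact permutation within the statin strata, 63504 assignments). The mitochondrial share was 16.1 ± 7.20% with GGOH and 13.8 ± 2.38% without (SD, n = 10 each). It was 27.9% and 29.2% in combination mice 2 and 3, and at most 17.1% in the other 18 libraries. With combination mice 2 and 3 and vehicle mouse 1 left out, mice doubted from earlier results, the total count differed by 2178680 (exact permutation p = 0.0186, unadjusted). Combination mouse 3 had the lowest total count (8548120) and vehicle mouse 1 the highest of its group (16776626). Leaving out these 2 widens the difference by itself, so that p-value is no separate test of it. Combination mouse 2 was the highest of its group (17864456). All 10 hepatocyte markers were detected in the tested set, and their summed TPM ran from 39130 to 76033 with GGOH and from 47052 to 89483 without.

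Across the liver transcriptome, 1 gene rose with GGOH and 0 fell. Cyp2b10 passed the 5% false discovery rate in the edgeR quasi-likelihood test, which is 0.00782% of the 12789 genes tested. At an unadjusted p under 0.05 there were 218 genes (1.70%), 115 higher (0.899%) and 103 lower (0.805%). Of all tested genes, 48.4% had a log2 fold change above 0. Among mice without the statin 0 genes passed in GGOH against vehicle (366 at an unadjusted p under 0.05, 2.86%). Among mice with the statin 0 genes passed in the combination against rosuvastatin (216, 1.69%). The 2 comparisons share no mouse, and the sign of the log2 fold change was the same in both for 5297 of 12789 genes (41.4%). No gene had values that were separated without overlap, in 1 direction, in both comparisons. How many of all genes were separated in only 1 comparison was not counted, so such a separation has no share beside it. Among the named genes it was seen for Cyp2b10, Cyp2c29 and G6pc with the statin, and for Ahr and Lats1 without it. The interaction, which tests whether the GGOH difference itself depends on the statin, also gave 0 calls (369 at an unadjusted p under 0.05, 2.89%). By DESeq2, run on all 34933 named genes with its own filtering in place of the low-count filter, the counts were 4 for the combined contrast, 1 without the statin, 2 with it and 0 for the interaction, so both the tool and the genes tested differ. The calls within the strata other than Cyp2b10 were Gm7666 without the statin and Gm15542 with it, both named after their values were seen and both removed by the low-count filter. Gm7666 had estimated counts of 69 and 15 in GGOH mice 1 and 3 and of 0 in the other 3 GGOH mice, against 0 in all 5 vehicle mice. Gm15542 had 26 and 15 in combination mice 2 and 3 and 0 in the other 3 combination mice, against 0 in all 5 rosuvastatin mice.

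**Figure D1:**
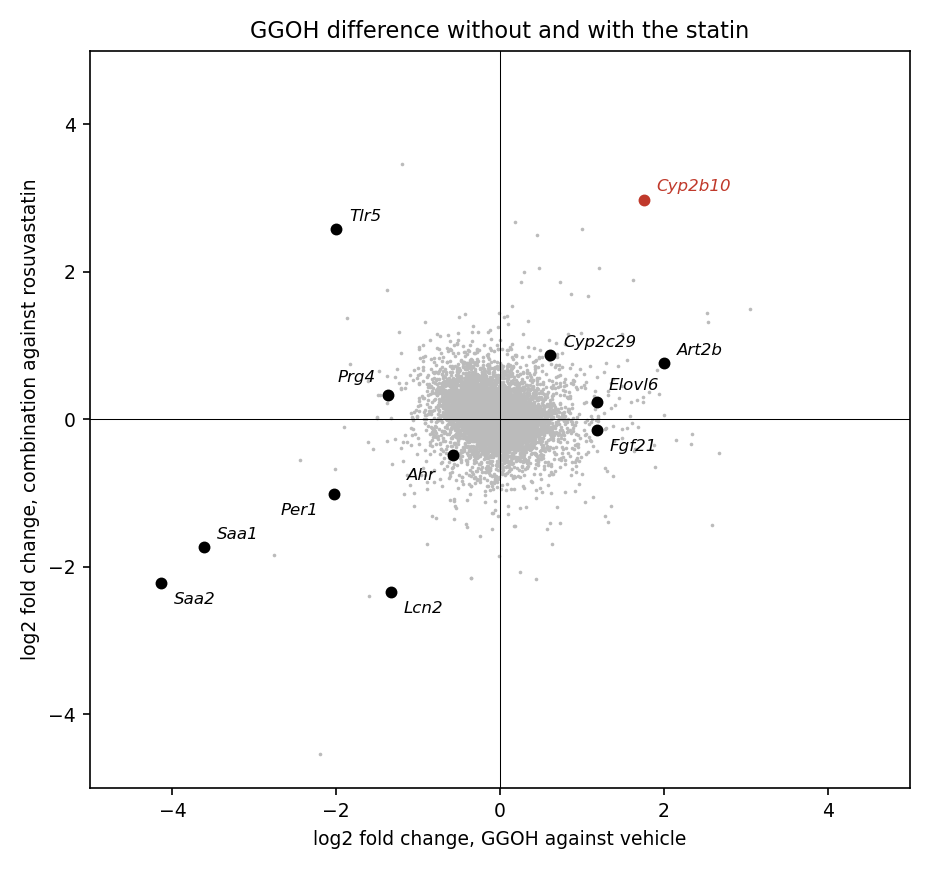
Fitted log2 fold change of each tested gene for GGOH against vehicle (horizontal axis) and for the combination against rosuvastatin (vertical axis). Grey points are all genes, 7 of which lie beyond the axis limit of 5; black points are named genes, and red marks Cyp2b10, at 1.76 and 2.98, the gene past the threshold in the combined contrast.

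Cyp2b10 encodes a cytochrome P450 of drug and steroid oxidation and lies on the forward strand of chromosome 7 from 25897620 to 25926624 (GRCm38). The window of 250 bases before and 50 after its RefSeq start, chr7:25897408-25897707 (GRCm38.p6, forward strand), is shown because this is the gene that passed. Next to it is the window of Cyp2c29, chr19:39286835-39287134 (forward strand), a second CAR-responsive P450 gene that is described below. Each window is written 5′ to 3′ on the strand of its gene. Capitals mark AGGTCA, the core repeat unit that nuclear receptors bind, and TTNNGCAA, the pattern of C/EBP factors, searched on both strands.
Cyp2b10: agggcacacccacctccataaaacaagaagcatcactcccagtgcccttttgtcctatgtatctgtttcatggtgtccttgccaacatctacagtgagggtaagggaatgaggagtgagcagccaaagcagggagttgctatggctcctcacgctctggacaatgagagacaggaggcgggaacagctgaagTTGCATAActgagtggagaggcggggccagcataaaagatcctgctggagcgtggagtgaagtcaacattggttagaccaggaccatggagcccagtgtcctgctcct
Cyp2c29: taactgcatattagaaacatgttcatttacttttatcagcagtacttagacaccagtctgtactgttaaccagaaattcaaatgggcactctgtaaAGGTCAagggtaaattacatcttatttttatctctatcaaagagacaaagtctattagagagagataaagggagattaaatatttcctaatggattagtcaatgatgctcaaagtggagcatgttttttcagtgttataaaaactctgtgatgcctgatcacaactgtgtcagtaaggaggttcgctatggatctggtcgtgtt
The Cyp2b10 window holds 1 TTNNGCAA match, on the opposite strand from -58 to -51 relative to the start, and no AGGTCA match. The Cyp2c29 window holds 1 AGGTCA match on its own strand, from -154 to -149, and no TTNNGCAA match. Of 32851 mouse promoter windows of this length, 16.3% hold AGGTCA and 10.8% hold TTNNGCAA, so a match in a single window is a description of the sequence. The matches of the 2 motifs do not overlap in these windows. Sequence outside the windows was not searched, so a missing match says nothing about sites further away.

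Cyp2b10 stood at 0.976, 2.15, 3.86, 3.95 and 1.49 CPM (counts scaled to the TMM-normalised library size) in GGOH mice 1 to 5, against 0.811, 0.467, 1.24, 0.094 and 0.955 CPM in vehicle mice. With the statin it stood at 4.03, 9.02, 5.15, 8.07 and 3.92 CPM in combination mice, against 0.702, 0.476, 0.227, 0.639 and 1.72 CPM in rosuvastatin mice. Of the GGOH mice, 4 of 5 lay above every vehicle mouse, and all 5 combination mice lay above every rosuvastatin mouse. Over the sides, the mean was 4.26 ± 2.61 CPM with GGOH and 0.732 ± 0.481 CPM without (SD, n = 10 each).

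The log2 fold change of Cyp2b10 was 2.37 ± 0.35 (SE), with an edgeR quasi-likelihood adjusted p of 0.0155. It was 1.76 ± 0.51 without the statin and 2.98 ± 0.50 with it. The interaction of 1.22 ± 0.71 had an unadjusted p of 0.0976 and an adjusted p of 0.999, so a dependence on the statin was not shown. The level is low: the estimated counts were 10 to 70 in GGOH mice against 1 to 19 in vehicle mice, and 48 to 165 in combination mice against 4 to 31 in rosuvastatin mice. On the length-scaled TPM deposited by the authors, Cyp2b10 stood at 1.49 ± 0.69 in GGOH mice against 0.413 ± 0.322 in vehicle mice, and at 3.46 ± 1.35 in combination mice against 0.554 ± 0.381 in rosuvastatin mice (SD, n = 5 each).

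The call of Cyp2b10 lay close to the threshold, whereas its size changed little when single mice were left out. Leaving out each mouse in turn gave log2 fold changes from 2.23 to 2.67, and the call ended without vehicle mouse 2, rosuvastatin mouse 2, rosuvastatin mouse 4, GGOH mouse 3, GGOH mouse 4 or combination mouse 2, with adjusted p from 0.0501 to 0.0594. It also ended without 3 mice doubted from earlier results, combination mice 2 and 3 and vehicle mouse 1 (log2 fold change 2.31, adjusted p = 0.206). The same held without vehicle mouse 2 and rosuvastatin mouse 3 (2.20, adjusted p = 0.0970), a pair chosen after seeing the data. On log2(TPM + 1), a scale that understates changes of low genes, the value was 1.15.

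Cyp2b9, its neighbour of the same subfamily, which is known as the female-predominant form in mouse liver, showed another pattern. It stood at 9.18, 104, 150, 107 and 38.2 CPM in GGOH mice, against 191, 54.6, 180, 67.7 and 84.3 CPM in vehicle mice. It stood at 89.4, 164, 224, 98.7 and 61.1 CPM in combination mice, against 104, 51.3, 12.4, 85.9 and 186 CPM in rosuvastatin mice. The groups overlapped throughout, and the log2 fold change was 0.02 ± 0.43. Its TPM was far above that of Cyp2b10, from 4.52 to 140 in mice with GGOH and from 9.30 to 161 without. Of the distinct 31-base stretches of the Cyp2b10 transcripts, 19.4% occur in transcripts of another gene, most often Cyp2b13 (13.1%), and 26.1% of those of Cyp2b9 do. Estimated counts can therefore be moved between these copies, and whether this touches the Cyp2b10 value was not tested. Nr1i3, which encodes CAR itself, stood at 252.5 ± 67.7 CPM with GGOH and 257 ± 88.9 CPM without (SD, n = 10 each), a log2 fold change of -0.04 ± 0.20.

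**Figure D2:**
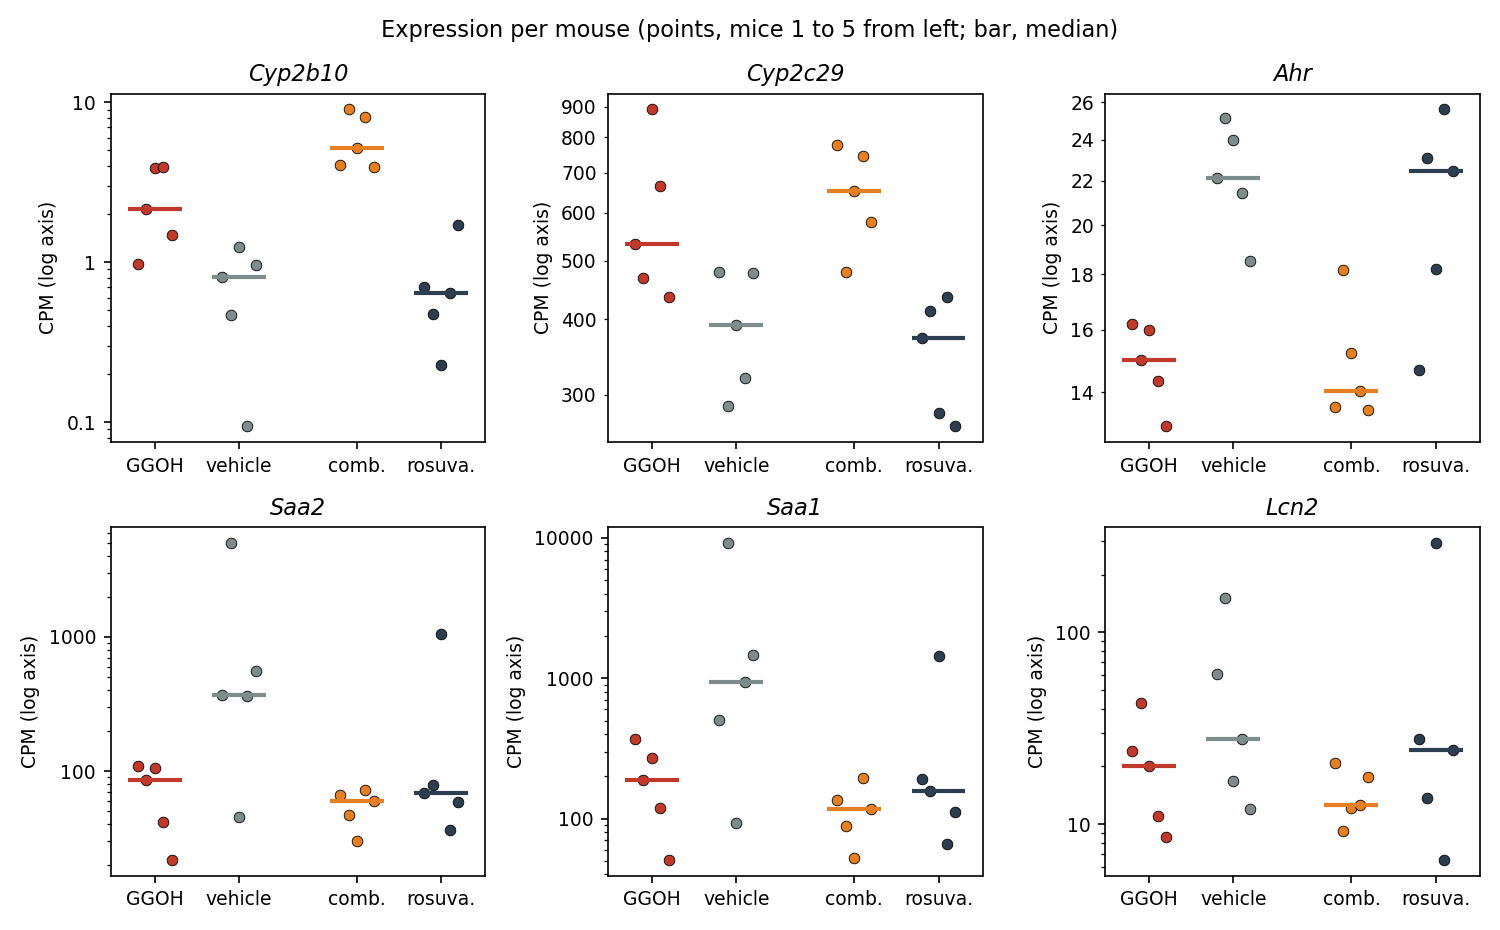
CPM on a log axis for 6 genes, 1 point per mouse (mice 1 to 5 from the left) with the median as a bar, in GGOH, vehicle, combination (comb.) and rosuvastatin (rosuva.) mice. Cyp2b10 and Cyp2c29 are separated without overlap between combination and rosuvastatin mice, and Ahr between GGOH and vehicle mice. The highest values of Saa2 and Lcn2 belong to vehicle mouse 2 and rosuvastatin mouse 3. For Saa1 vehicle mouse 2 is highest, followed by vehicle mouse 5 and rosuvastatin mouse 3.

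Of the CAR and PXR list of xenobiotic metabolism, 35 of 38 genes could be tested. In the edgeR quasi-likelihood test 1 rose, Cyp2b10, and 0 fell. At an unadjusted p under 0.05, 7 were higher and 0 lower, against 0.899% and 0.805% of all genes. The median log2 fold change of the list was 0.04, against -0.0048 over all genes, with 23 positive and 12 negative members, the lowest Cyp2b13 at -0.78. Besides Cyp2b10, the members with an unadjusted p under 0.05 were Cyp2c29, Cyp2a4 (1.28 ± 0.50), Cyp3a44 (1.63 ± 0.74), Cyp3a11 (0.41 ± 0.19), Cyp2c55 (0.47 ± 0.22) and Gadd45b (0.56 ± 0.25), none of them past the threshold. Cyp2a4 and Cyp3a44 share 58.1% and 48.4% of their 31-base stretches with other genes. Without combination mouse 5 Cyp2a4 stood at 0.59. Cyp3a44 was low, with 0 to 24 estimated counts a mouse (0 to 1.35 CPM), and stood at 0.17 on log2(TPM + 1). Cyp3a11, a classical PXR target of mouse liver, stood at 0.76 ± 0.27 without the statin and at 0.05 ± 0.27 with it (interaction unadjusted p = 0.0787).

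Cyp2c29, a P450 that oxidises fatty acids and drugs, lies on chromosome 19 from 39269405 to 39330713 in GENCODE. The RefSeq start window shown above lies within this span, downstream of the GENCODE start. Of its distinct 31-base transcript stretches, 10.4% occur in another gene, most often Cyp2c53-ps (5.6%). Cyp2c29 stood at 534, 469, 891, 666 and 435 CPM in GGOH mice, against 479, 287, 391, 319 and 478 CPM in vehicle mice. It stood at 776, 478, 651, 746 and 581 CPM in combination mice, against 373, 413, 280, 435 and 266 CPM in rosuvastatin mice. All 5 combination mice lay above every rosuvastatin mouse, and 3 of 5 GGOH mice lay above every vehicle mouse. The log2 fold change was 0.74 ± 0.16, with an adjusted p of 0.455 by the edgeR quasi-likelihood test and of 0.00892 by DESeq2, and it stayed between 0.65 and 0.79 when any 1 mouse was left out. Ugt1a9, which conjugates phenols and drugs with glucuronic acid, had 41.9, 77.4, 83.3, 65.8 and 38.1 CPM in GGOH mice, against 19.5, 25.3, 26.4, 48.7 and 28.9 CPM in vehicle mice. It had 27.9, 51.9, 89.5, 55.9 and 101 CPM in combination mice, against 43.4, 25.9, 49.8, 32.6 and 78.2 CPM in rosuvastatin mice. The log2 fold change was 0.77 ± 0.24, not past the threshold, and the groups overlapped in both comparisons. Without the statin, 3 of 5 GGOH mice lay above every vehicle mouse. Transcript stretches shared with other genes were not counted for Ugt1a9.

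Ahr encodes the aryl hydrocarbon receptor, a ligand-activated transcription factor, and lies on the reverse strand of chromosome 12 from 35497974 to 35535038. It stood at 16.2, 15.0, 15.99, 14.3 and 13.0 CPM in GGOH mice, against 22.1, 25.1, 24.0, 21.4 and 18.5 CPM in vehicle mice, with no overlap. It stood at 13.6, 18.15, 15.2, 14.02 and 13.5 CPM in combination mice, against 14.7, 23.1, 18.20, 25.6 and 22.5 CPM in rosuvastatin mice. Here rosuvastatin mouse 1 lay within the range of the combination mice and the other 4 lay above it. The log2 fold change was -0.53 ± 0.10, close to the values without the statin (-0.58 ± 0.15) and with it (-0.48 ± 0.15). Its adjusted p was 0.304 by the edgeR quasi-likelihood test, 0.00679 by DESeq2 and from 0.0362 (without rosuvastatin mouse 1) to 0.821 (without rosuvastatin mouse 5) by edgeR when any 1 mouse was left out. It passed in 3 of 32 alternatives. Of the 7 tested members of the AHR list, 5 had a negative and 2 a positive log2 fold change, and Ahr was the 1 with an unadjusted p under 0.05. Its target Cyp1a2, a P450 of caffeine and arylamine oxidation, stood at -0.11 ± 0.21, and Nqo1, a quinone reductase, at 0.11 ± 0.20. The sign of Cyp1a2 changed without rosuvastatin mouse 2 or with sample weights (0.021 in both).

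The acute phase genes hold the most negative values among the named genes. Saa1 and Saa2 encode serum amyloid A, which the liver secretes in inflammation. They lie head to head on chromosome 7, Saa1 from 46740497 to 46742980 on the reverse strand and Saa2 from 46751790 to 46754313 on the forward strand. Their RefSeq start windows, chr7:46742931-46743230 (reverse strand) and chr7:46751583-46751882 (forward strand), are printed because both genes varied together between mice, with the same 2 motifs in capitals.
Saa1: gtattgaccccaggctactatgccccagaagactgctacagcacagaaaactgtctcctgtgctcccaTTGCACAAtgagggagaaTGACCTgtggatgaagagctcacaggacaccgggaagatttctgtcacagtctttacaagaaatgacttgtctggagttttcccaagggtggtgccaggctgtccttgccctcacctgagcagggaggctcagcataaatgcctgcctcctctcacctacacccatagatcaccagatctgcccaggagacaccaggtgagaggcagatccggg
Saa2: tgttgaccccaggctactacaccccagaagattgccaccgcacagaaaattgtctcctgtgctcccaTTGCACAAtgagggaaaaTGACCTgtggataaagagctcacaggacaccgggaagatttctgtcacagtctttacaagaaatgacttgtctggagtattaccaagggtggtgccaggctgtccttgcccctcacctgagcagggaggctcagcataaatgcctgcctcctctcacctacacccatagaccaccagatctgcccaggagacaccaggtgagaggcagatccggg
The 2 windows are identical at 287 of 301 aligned positions (95.3%). Each holds 1 TTNNGCAA match and 1 AGGTCA match, both on the strand opposite to the gene, from -182 to -175 and from -164 to -159 in Saa1 and 1 base further from the start in Saa2. Of the 31-base transcript stretches, 46.8% of Saa1 and 44.5% of Saa2 occur in another gene, nearly all in each other, so how reads were divided between them is uncertain.

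Saa2 stood at 108, 85.9, 105, 41.6 and 21.8 CPM in GGOH mice, against 367, 5034, 45.7, 361 and 553 CPM in vehicle mice. It stood at 66.5, 46.7, 30.0, 72.2 and 60.2 CPM in combination mice, against 69.0, 78.8, 1047, 36.7 and 58.7 CPM in rosuvastatin mice. Without the statin, 4 of 5 vehicle mice lay above every GGOH mouse. With the statin the groups overlapped, with rosuvastatin mouse 3 far above the others. Saa1 followed, with 367, 190, 271, 119 and 50.9 CPM in GGOH mice against 508, 9216, 93.1, 944 and 1456 CPM in vehicle mice. It had 135, 88.5, 52.5, 196 and 118 CPM in combination mice against 191, 158, 1431, 65.6 and 111 CPM in rosuvastatin mice.

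The log2 fold change was -3.18 ± 0.72 for Saa2 and -2.67 ± 0.67 for Saa1, with adjusted p of 0.747 and 0.9998 by the edgeR quasi-likelihood test and of 0.0177 for Saa2 by DESeq2. Without vehicle mouse 2 and rosuvastatin mouse 3, a pair chosen after seeing the data, the values were -1.17 ± 0.36 for Saa2 and -1.03 ± 0.41 for Saa1 (unadjusted p = 0.00397 and 0.0215). Lcn2, the siderophore-binding lipocalin of the acute phase, had 24.0, 42.7, 19.98, 11.1 and 8.56 CPM in GGOH mice, against 60.9, 152, 16.7, 27.6 and 12.03 CPM in vehicle mice. It had 20.8, 9.19, 12.1, 12.5 and 17.6 CPM in combination mice, against 27.7, 13.7, 294, 6.50 and 24.3 CPM in rosuvastatin mice. Its log2 fold change of -1.84 ± 0.58 became -0.83 without rosuvastatin mouse 3 and -0.40 without that mouse and vehicle mouse 2 (unadjusted p = 0.268).

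Of the 32 members of the acute phase and inflammation list, 0 passed in either direction. At an unadjusted p under 0.05, 6 were lower and 1 higher, and 27 had a negative log2 fold change. The median was -0.24. Of all genes, 0.805% were lower and 0.899% higher at that p, and 48.4% had a positive log2 fold change. Orm2, an acid glycoprotein, stood at -1.10 ± 0.39, the protease inhibitor Serpina3n at -0.83 ± 0.33 and Itih4, an inter-alpha-trypsin inhibitor chain, at -0.56 ± 0.23. The chemokine Ccl2 stood at 0.85 ± 0.30. Without rosuvastatin mouse 3 Serpina3n stood at -0.41 (unadjusted p = 0.115), and with sample quality weights at -0.076. Orm2 stood at -0.71 without vehicle mouse 2 and at -0.72 without rosuvastatin mouse 3. Without both, Orm2 was at -0.33, Serpina3n at -0.43 and Itih4 at -0.27. Without vehicle mouse 2 and rosuvastatin mouse 3 the median was -0.10, with 22 negative members and 2 lower at an unadjusted p under 0.05. The sums of neutrophil markers overlapped between the groups, as given further below.

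**Figure D3:**
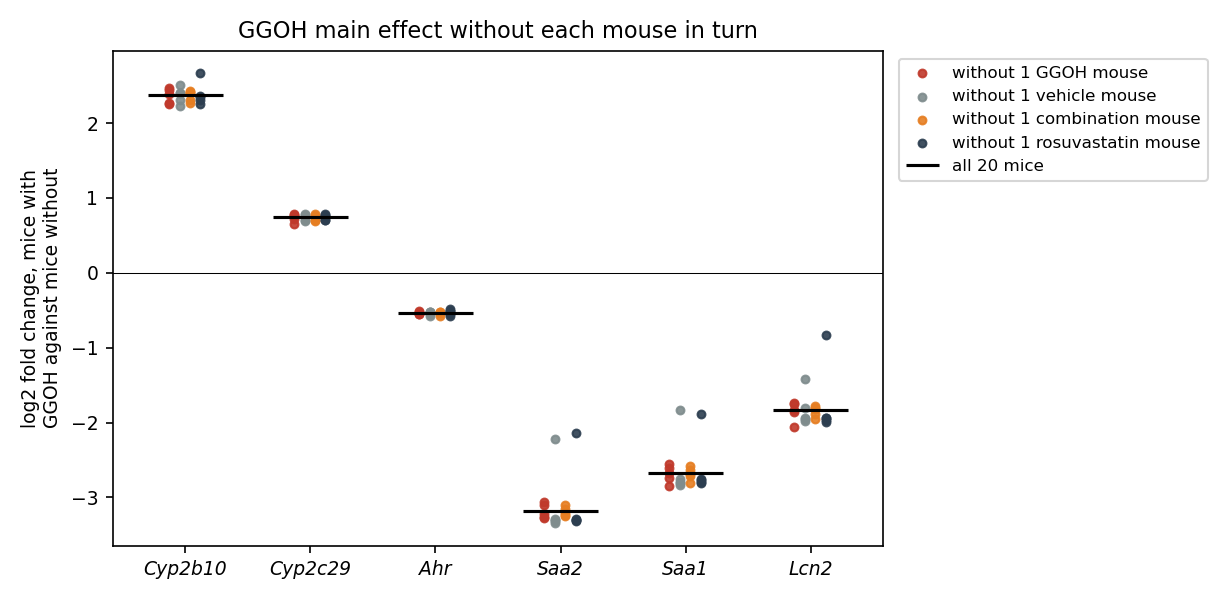
Log2 fold change of 6 genes for mice with GGOH against mice without, refitted without each mouse in turn (points, coloured by the group of the mouse left out) and with all 20 mice (line). Cyp2b10, Cyp2c29 and Ahr stayed close to the line, whereas Saa1 and Saa2 shrank without vehicle mouse 2 or rosuvastatin mouse 3, and Lcn2 shrank to -0.83 without rosuvastatin mouse 3.

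Genes of cholesterol synthesis, which SREBP-2 drives when sterols are scarce, had lower values with GGOH, though 0 of 20 passed. All 20 had a negative log2 fold change, from -0.87 to -0.10 with a median of -0.54, and 3 had an unadjusted p under 0.05. Among these, Lss, which forms lanosterol, stood at -0.80 ± 0.31 and Dhcr7, of the last steps, at -0.65 ± 0.28. The median was -0.26 without the statin, with 3 positive members, and -0.82 with it, with 0 positive, where 46.9% and 52.6% of all genes were positive. Genes of a coregulated pathway vary together from mouse to mouse, so a shared sign counts for less than 20 separate observations.

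Hmgcs1, which makes HMG-CoA, had 88.5, 216, 210, 195 and 209 CPM in GGOH mice, against 240, 454, 98.1, 172 and 153 CPM in vehicle mice. It had 291, 163, 371, 307 and 126 CPM in combination mice, against 400, 219, 843, 564 and 192 CPM in rosuvastatin mice. The ranges overlapped in both pairs, with 3 of 5 rosuvastatin mice above every combination mouse. Its log2 fold change was -0.55 ± 0.30. Sqle, the squalene epoxidase, stood at -0.87 ± 0.43 and Fdps, which makes farnesyl diphosphate, at -0.54 ± 0.35.

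How far the cholesterol genes stood apart depended on single mice. The number at an unadjusted p under 0.05 was 0 without rosuvastatin mouse 3, 1 without vehicle mouse 1 or vehicle mouse 2, and 12 without rosuvastatin mouse 5, and the median ran from -0.64 to -0.32 over all mice left out in turn. Without vehicle mouse 2 and rosuvastatin mouse 3 it was -0.22, with 19 of 20 negative. With sample quality weights it was -0.21, with 18 negative. Dhcr7 stood at -0.44 and Fdps at -0.33 without rosuvastatin mouse 3, and Hmgcs1 at -0.35 without vehicle mouse 2.

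**Figure D4:**
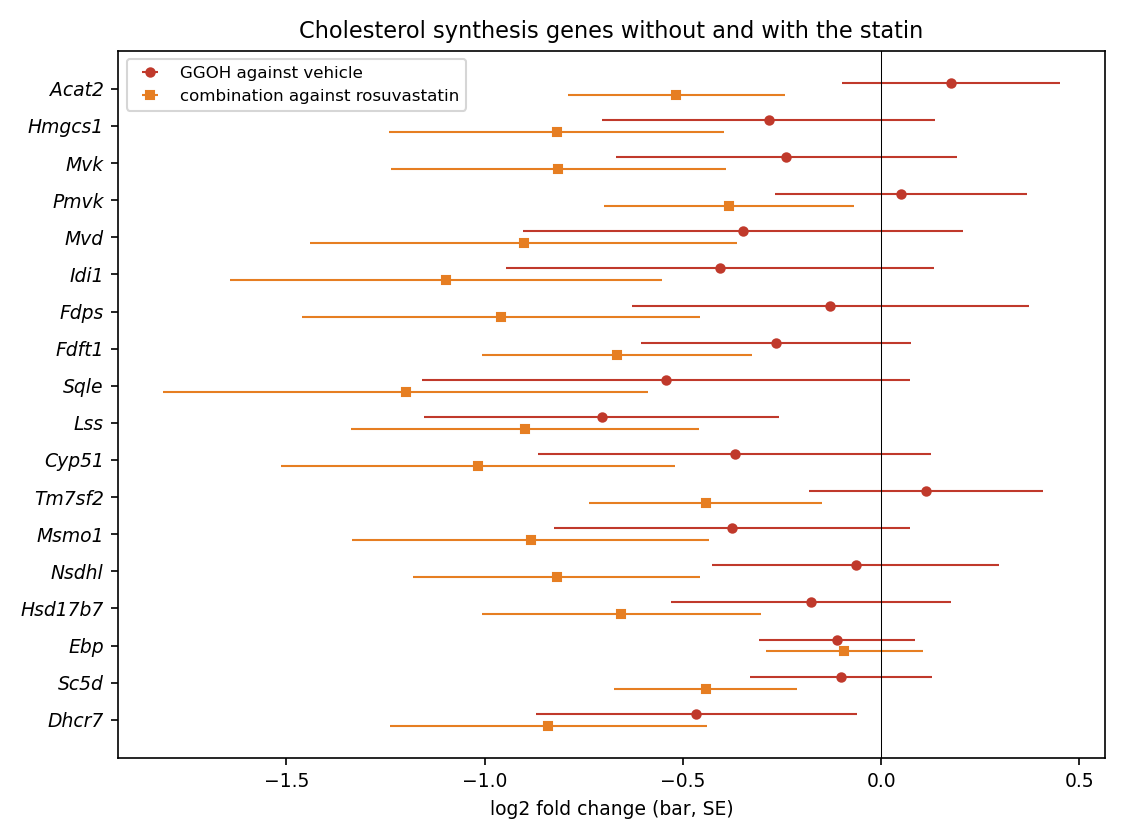
Log2 fold change (point) and SE (bar) of 18 cholesterol synthesis genes, from Acat2 at the head of the pathway to Dhcr7, for GGOH against vehicle (circles) and for the combination against rosuvastatin (squares). The medians of the whole list of 20 are -0.26 and -0.82, and 3 genes are above 0 in the comparison without the statin.

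The genes of sterol uptake and its control were measured in 13 of 14 cases, and 0 passed. Their median was -0.21, with 12 negative and 2 lower at an unadjusted p under 0.05, where 0.805% of all genes were lower. The median was -0.37 without the statin, with 2 of 13 positive, and -0.08 with it, with 6 of 13 positive. Insig1, which retains the SREBP complex in the endoplasmic reticulum, stood at -0.49 ± 0.23, and at -0.31 without vehicle mouse 2. Srebf2, which encodes SREBP-2, stood at -0.23 ± 0.18, and at -0.11 without vehicle mouse 1, where the median of the list was -0.10.

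Genes of the isoprenoid branch and of prenylation had a median log2 fold change near 0. Of these 18 genes, 0 passed and 0 had an unadjusted p under 0.05. The median was -0.01, with 8 positive and 10 negative members from -0.51 to 0.20. Ggps1, which makes geranylgeranyl diphosphate, stood at 0.10 ± 0.14, and Fnta and Fntb, the subunits of farnesyltransferase, stood at 0.15 ± 0.11 and -0.51 ± 0.24. On the log2(TPM + 1) scale Fntb stood at 0.015. Among small GTPases, Rhoa stood at -0.02 ± 0.11 and Rhob, whose transcript is known to rise when prenylation is blocked, at 0.06 ± 0.15. Both changed sign between settings. The 16 tested genes of the YAP and TAZ pathway, which prenylated small GTPases are known to activate, had a median of -0.05 and 0 with an unadjusted p under 0.05. Transcript levels do not show how much of a GTPase is prenylated or membrane-bound.

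Among genes of fatty acid oxidation and PPAR-alpha targets, 0 of 31 passed and 3 were higher at an unadjusted p under 0.05. A positive log2 fold change was found for 25, with a median of 0.08. Of all genes, 0.899% were higher at that p and 48.4% were positive. Acaa1b, a peroxisomal thiolase, had 786, 876, 1093, 1039 and 1069 CPM in GGOH mice, against 905, 456, 847, 566 and 1007 CPM in vehicle mice. It had 855, 1233, 1559, 1293 and 1340 CPM in combination mice, against 742, 798, 686, 898 and 1025 CPM in rosuvastatin mice. Of the combination mice 4 of 5 lay above every rosuvastatin mouse, and the log2 fold change was 0.48 ± 0.15. Ehhadh, the peroxisomal bifunctional enzyme, stood at 0.42 ± 0.17, the acyl-CoA thioesterase Acot1 at 0.50 ± 0.22 and the omega-hydroxylase Cyp4a14 at 0.29 ± 0.15.

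Fgf21, a hepatic hormone of fasting, stood at 0.51 ± 0.29 over both strata. The difference was 1.18 ± 0.42 without the statin and -0.15 ± 0.41 with it, with an interaction of -1.33 ± 0.59 (unadjusted p = 0.0342, adjusted p = 0.999, edgeR). Among 21 tested genes of fatty acid and triglyceride synthesis, 0 passed, 2 were higher and 1 lower at an unadjusted p under 0.05, and the median was 0.07. Elovl6, which elongates palmitate, stood at 0.70 ± 0.24 and the malic enzyme Me1 at 0.42 ± 0.14, while Acly, which supplies cytosolic acetyl-CoA, stood at -0.39 ± 0.13 and Srebf1 at -0.49 ± 0.27. Srebf1, which encodes the lipogenic SREBP-1, was at -0.23 without vehicle mouse 1, and at -0.82 ± 0.38 without the statin and -0.16 ± 0.37 with it. Elovl6 was at 1.18 ± 0.35 without the statin and at 0.23 ± 0.34 with it (interaction unadjusted p = 0.0661).

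**Figure D5:**
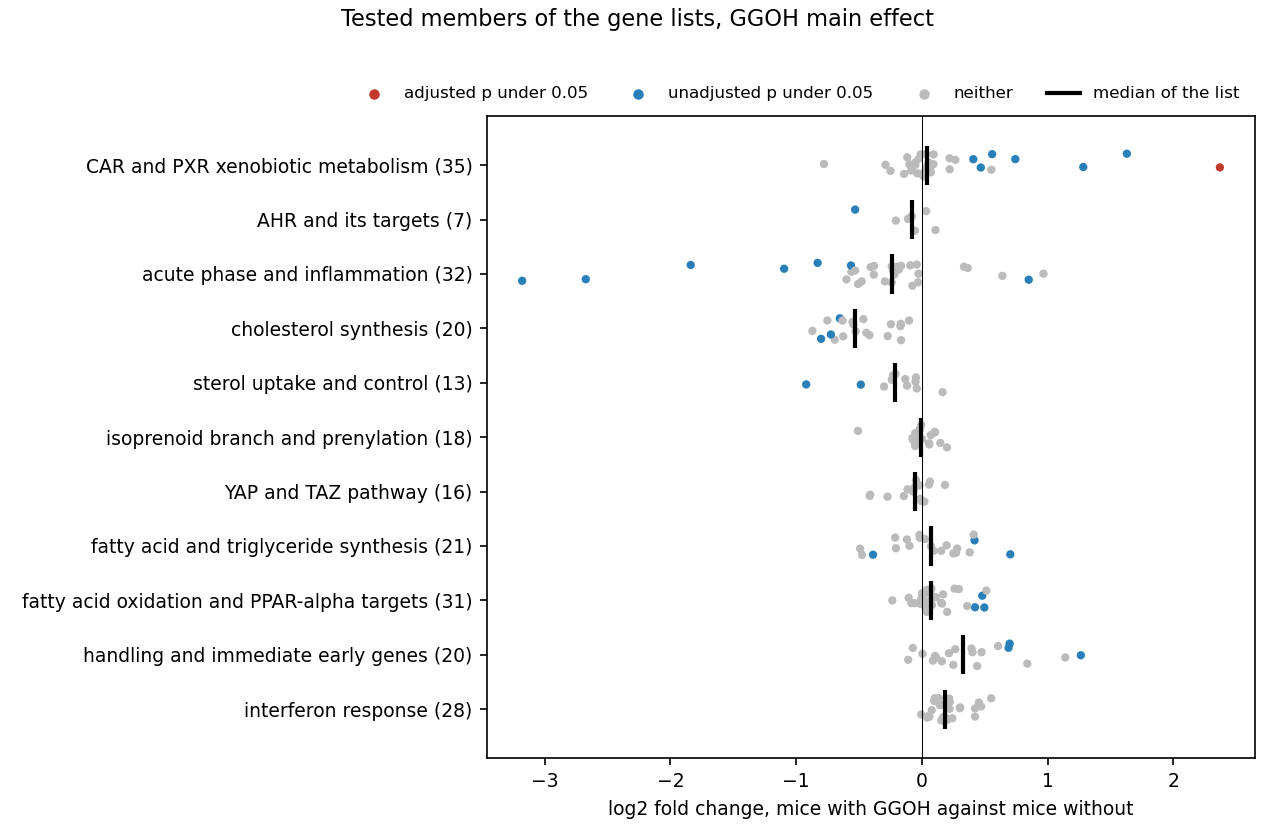
Log2 fold change of the tested members of 11 gene lists (number in parentheses) for mice with GGOH against mice without, with the median of each list as a bar. Red marks the member past the adjusted threshold (Cyp2b10) and blue those with an unadjusted p under 0.05; the medians run from -0.54 for cholesterol synthesis to 0.33 for the immediate early genes.

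Per1, a repressor of the circadian clock, had 0.781, 2.36, 0.695, 0.846 and 2.73 CPM in GGOH mice, against 14.2, 2.34, 9.31, 1.60 and 2.77 CPM in vehicle mice. It had 1.34, 3.45, 3.00, 0.939 and 1.46 CPM in combination mice, against 2.95, 4.36, 1.70, 6.39 and 4.93 CPM in rosuvastatin mice. The groups overlapped in both pairs, with vehicle mice 1 and 3 far above the others. The log2 fold change was -1.52 ± 0.40, with an adjusted p of 0.9998 (edgeR), and -1.21 without vehicle mouse 1. Over the 18 clock genes 0 passed, 9 were positive and 9 negative, and the median was -0.01. The time of day of sampling is not in the labels, and its part in the Per1 values was not tested.

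The list of handling and immediate early genes, which respond within minutes to stress or growth signals, had 18 of 20 tested members with a positive log2 fold change and a median of 0.33, with 0 past the threshold and 3 higher at an unadjusted p under 0.05. These were Egr1 (1.26 ± 0.48), the heat shock gene Hspa1b (0.69 ± 0.31) and Nr4a1 (0.70 ± 0.32). Of all genes, 0.899% were higher at that p and 48.4% were positive. Without GGOH mouse 1 Egr1 stood at 0.92 and Hspa1b at 0.41 (unadjusted p = 0.141 for Hspa1b), and without GGOH mouse 2 Nr4a1 stood at 0.42 (unadjusted p = 0.169). Interferon response genes had 27 of 28 positive members and a median of 0.19, with 0 at an unadjusted p under 0.05. That median was 0.42 without the statin and -0.02 with it, and without GGOH mouse 2 it was -0.01 in the combined contrast, with 13 of 28 positive. NRF2 targets had a median of 0.11, with 17 of 23 positive.

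The remaining pathway lists had 0 members past the threshold and medians within 0.17 of 0. The 13 mitochondrially encoded genes had a median of 0.17, of -0.19 without the statin and of 0.52 with it, beside the high mitochondrial share of combination mice 2 and 3. Among them, mt-Nd6 stood at 1.06 ± 0.41, and at 0.54 without combination mouse 3. The medians were 0.04 for the nuclear respiratory chain, -0.03 for bile acid synthesis, -0.05 for LXR targets and -0.03 for gluconeogenesis. They were 0.03 for the cell cycle, -0.01 for ER stress, 0.00 for retinoid and alcohol dehydrogenases and -0.14 for fibrosis and matrix. In the last list Spp1, an osteopontin of cholangiocytes and macrophages, stood at -0.59 ± 0.28, with 0.10 ± 0.39 without the statin and -1.29 ± 0.39 with it (interaction unadjusted p = 0.0201), and at -0.33 without rosuvastatin mouse 3.

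In bulk liver, fewer cells of a type and less RNA per cell cannot be told apart. The 7 tested markers of B and plasma cells had a positive log2 fold change, with a median of 0.47. The immunoglobulin genes Ighm (0.47 ± 0.19) and Igkc (0.53 ± 0.23) had an unadjusted p under 0.05, and 0 markers passed. The summed TPM of the 8 markers ran from 35.0 to 55.8 in GGOH mice against 23.1 to 49.5 in vehicle mice, and from 26.7 to 80.8 in combination mice against 23.2 to 58.2 in rosuvastatin mice. The groups overlapped.

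The other cell type lists stayed closer to 0 or rested on few genes. Medians were -0.13 for 10 hepatocyte markers, -0.07 for 11 of sinusoidal endothelium, -0.09 for 10 of stellate cells, 0.10 for 10 of T and NK cells and 0.22 for 4 of neutrophils. They were 0.06 for 8 of erythroid cells, 0.02 for 6 of adipocytes and -0.47 for 5 of cholangiocytes, a list that holds Spp1. Within the strata, the cholangiocyte median was 0.10 without the statin (3 of 5 positive) and -0.80 with it (1 of 5 positive), and the neutrophil median was 0.66 without it and -0.21 with it. Summed neutrophil markers ran from 15.4 to 105 TPM in GGOH mice against 7.55 to 59.4 TPM in vehicle mice, and from 11.6 to 56.6 TPM in combination mice against 22.2 to 44.6 TPM in rosuvastatin mice. Only 1 of 8 pancreatic and 1 of 8 skeletal muscle markers passed the low-count filter.

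The genes of smallest p outside these groups were Art2b, a T cell ADP-ribosyltransferase (1.39 ± 0.37), Agfg2 (-0.35 ± 0.11) and S1pr5, a sphingosine-1-phosphate receptor (-0.51 ± 0.16), each at an adjusted p of 0.9998 by edgeR. Art2b stood at 0.416 to 4.25 CPM in GGOH mice against 0.238 to 0.716 CPM in vehicle mice, and at 0.547 to 2.30 CPM in combination mice against 0.498 to 0.912 CPM in rosuvastatin mice. Prg4, a secreted proteoglycan, had 16.9 to 23.4 CPM in GGOH mice against 21 to 109 CPM in vehicle mice, and 15.3 to 32.8 CPM in combination mice against 12.6 to 26.3 CPM in rosuvastatin mice. Its log2 fold change was -0.52 ± 0.25, made up of -1.37 ± 0.35 without the statin and 0.33 ± 0.35 with it (interaction unadjusted p = 0.00237, adjusted p = 0.999), and it was -0.29 without vehicle mouse 2.

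The interaction was largest by p for Tlr5, the flagellin receptor, at 4.58 ± 1.13 (unadjusted p = 5.78e-04, adjusted p = 0.999, edgeR). It ranged from 0.338 to 0.891 CPM in GGOH mice against 0.376 to 5.68 CPM in vehicle mice, and from 0.352 to 13.4 CPM in combination mice against 0.454 to 1.05 CPM in rosuvastatin mice. Vehicle mice 1 and 3 (5.68 and 3.39 CPM) lay above every GGOH mouse, and combination mice 1 to 3 (2.17, 2.52 and 13.4 CPM) lay above every rosuvastatin mouse. Setbp1 (2.58 ± 0.73) and the sorting nexin Snx20 (-1.50 ± 0.42) followed, neither past the threshold.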

How the data were processed

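Poly(A) RNA of 20 livers was sequenced as paired reads on a NovaSeq, per the labels' protocols. The authors deposited estimated counts per gene, held as whole numbers, and TPM per gene, which the authors scaled for length and depth. The submitters' processing notes name bcl2fastq 2.19, kallisto 0.44.0, DESeq2 and the build GRCm38, with no role. Both tables hold 34934 entries; 1 without a name (0.00801 to 0.0157% of counts) was left out. Depth, 8548120 counts or more per library, limits low genes such as Cyp2b10.

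The test on counts was the quasi-likelihood F test of edgeR 4.0.16 (R 4.3.3, TMM, default low-count filter by group, a mean per group, Benjamini-Hochberg over 12789 genes, threshold 0.05). The value after ± on a log2 fold change is its SE, from the F statistic. The scripts were tested on simulated data. Alternatives were RLE size factors, DESeq2 1.42.0 on all 34933 named genes, other filters, an additive model, replicate number as a block, sample quality weights, limma 3.58.1 on log2 TPM with a pseudocount of 1 or 0.1, mitochondrial genes left out, and mice left out. Leaving out vehicle mouse 2 and rosuvastatin mouse 3 together was added after seeing the data.

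Named genes are 21 focal genes, the 12 of smallest p whose average log2 CPM was 0 or more, up to 4 per list, and 3 of the interaction; some of these are not reported here. A term for genes separated in both strata found none. Ighm, Igkc, Spp1, mt-Nd6, Ccl2, Serpina3n, Itih4, Cyp3a11, Cyp2c55 and Gadd45b, as far as that rule leaves them out, were named after their values were seen. The members and lists were chosen with earlier results of these data known. Positions come from GENCODE M21 and start windows from RefSeq, both on GRCm38; 34164 of 34933 symbols matched GENCODE.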

Additional observations from a re-analysis of the deposited data

Results flagged for a closer look

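Of 64 groups of 5 mice looked at (12 genes and the library measures), 9 held a mouse set apart from the others. Its gap to its neighbour was large against the range of the group. For independent, normally distributed values about 1 in 20, or 3.2, would be flagged. CPM values need not be normal, and the flags of Saa1, Saa2 and Lcn2 fall on the same 2 mice. The 9 and the 3.2 are therefore only roughly comparable. Saa1 was 9216 CPM and Saa2 5034 CPM in vehicle mouse 2. Rosuvastatin mouse 3 had 1431 CPM of Saa1, 1047 CPM of Saa2 and 294 CPM of Lcn2. Hmgcs1 was low in GGOH mouse 1, at 88.5 CPM. The total estimated count was low in GGOH mouse 1 (11350411) and in combination mouse 3 (8548120), and high in vehicle mouse 1 (16776626). The 2 mice flagged for Saa1 both belong to the side without GGOH. The values without them stand beside the results on the acute phase genes. Mice were compared within their group. Vehicle mouse 5 was therefore not flagged, although its Saa1 lay above that of rosuvastatin mouse 3.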

How the results depend on the processing

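The 1 gene called for GGOH overall stayed 1 with RLE size factors, either filter, the additive model, both TPM scales and without mitochondrial genes. The count was 4 with DESeq2, which ran without the low-count filter, and 3 with sample quality weights (Cyp2b10, Ahr and Cyp2c29). It was 0 with the replicate block, 0 without vehicle mouse 1 and combination mice 2 and 3, and 0 without vehicle mouse 2 and rosuvastatin mouse 3. Leaving out each mouse gave 0 to 2 calls. GGOH against vehicle had 1 call by DESeq2. The combination against rosuvastatin had 2 by DESeq2, 1 with no filter, 1 on log2(TPM + 1) and 0 to 1 when a mouse was left out. The interaction had 0 throughout. Cyp2b10 passed in 23 of 32 alternatives and kept its sign in all; its log2 fold change was 1.15 on log2(TPM + 1), 2.17 on log2(TPM + 0.1) and 2.85 with weights.

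Whether replicate numbers pair the mice is not in the labels, and correlations did not settle it. The correlations of same-numbered mice ran from -0.46 to 0.40, and 2 of 10 pairs correlated best with their own number. With the block Cyp2b10 stood at 2.33 (adjusted p = 0.196).

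Signs turned for 7 genes. Cyp2b9 was at -0.082 with the replicate block, -0.16 without vehicle mouse 1 and combination mice 2 and 3, -0.22 without vehicle mouse 2 and rosuvastatin mouse 3, and from -0.15 to 0.25 leaving out each mouse. Nr1i3 was at 0.0044 on log2(TPM + 1) and 0.0045 on log2(TPM + 0.1), and from -0.13 to 0.053. Rhoa was at 0.0021 on both, 0.034 without vehicle mouse 1 and combination mice 2 and 3, and from -0.063 to 0.025. Rhob ran from -0.081 to 0.12. Tlr5 was at -0.21 without those 3 mice and ran from -0.37 to 0.65. Fntb was at 0.015 on log2(TPM + 1). Cyp1a2 was at 0.021 with weights and ran from -0.21 to 0.021. Without those 3 mice the total count differed by 2178680, the mitochondrial share by -0.83 points and the share of the 10 highest genes by -1.06 points; leaving out each mouse, the total count differed by 788814 to 1953360, the highest without combination mouse 3 (exact permutation p = 0.0228). The cause of these shifts was not tested. For the total count, combination mouse 3 was the lowest library (8548120), so leaving it out raises the difference by itself.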

Other observations

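Most macrophage markers had opposite signs in the 2 strata, as values with no test of the difference. Over all genes tested, 41.4% had the same sign in both strata, and 46.9% and 52.6% were positive. The same-sign share was also low for neutrophil (25%), sinusoidal endothelial (27.3%), cholangiocyte (20%) and mitochondrially encoded (15.4%) lists. It was 66.7% or more for hepatocyte, T and NK, B and plasma, stellate, adipocyte and erythroid lists. Of 10 Kupffer cell markers 9 were positive for GGOH against vehicle (median log2 fold change 0.30) and 0 for the combination against rosuvastatin (-0.15). Of 11 markers of lipid-associated macrophages, which hold Trem2 and Gpnmb, 10 were positive without the statin (0.36) and 0 with it (-0.26). The summed TPM of the lipid-associated list ran from 511 to 661 in GGOH mice against 327 to 698 in vehicle mice, and from 347 to 677 in combination mice against 333 to 1113 in rosuvastatin mice. The summed TPM of the Kupffer cell list ran from 140 to 572 in GGOH mice against 184 to 370 in vehicle mice, and from 221 to 367 in combination mice against 222 to 461 in rosuvastatin mice. The groups overlapped, and 0 markers passed in either comparison.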
